A study of Mus musculus with 4 samples.

Results

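The 3 genes of mitochondrial uncoupling proteins, Ucp1, Ucp2 and Ucp3, were examined in mouse inguinal white fat, a depot under the skin. They were taken by gene symbol, and all 3 were present among the 13677 genes with a value. RNA sequencing libraries of 2 groups were compared: 2 libraries titled FLCNKO, from animals that the series describes as an adipose knockout of FLCN, and 2 WT libraries from wildtype animals. Flcn encodes folliculin, a tumour suppressor that acts with the mTOR pathway, and the series asks about its part in browning, by which white fat takes on features of brown fat. The Cre driver, the deleted part of Flcn, and the strain, sex, age and housing temperature of the animals are not stated in the labels read here. Whether each library is from a separate animal is not stated either, so the spread between replicates may be technical.

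Uncoupling proteins belong to the carrier family of the inner mitochondrial membrane. UCP1 lets protons return to the matrix without making ATP, so that respiration is released as heat. It is activated by free fatty acids, inhibited by purine nucleotides, and defines brown and beige adipocytes, where adrenergic signals through cAMP raise its transcription. UCP2 is found in many tissues and is abundant in macrophages and lymphoid cells, while UCP3 is found mainly in skeletal muscle and brown fat. For UCP2 and UCP3 a role in heat production is much less settled than for UCP1, and both have been tied to fatty acid use and to limiting reactive oxygen.

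The sequences upstream of the 3 genes are shown because the genes did not move alike and because 2 of them lie side by side. Ucp3 and Ucp2 follow each other on the same strand of chromosome 7 with 0 protein-coding genes between them, and Ucp1 lies on chromosome 8. The sequences are from RefSeq on build GRCm38.p6, all on the plus strand, and begin 250 bases before the start site. They stop before the first annotated exon base, at chr8:83290098-83290347 for Ucp1, chr7:100493108-100493336 for Ucp2 and chr7:100472741-100472989 for Ucp3. Capitals mark the letters of 6 motifs searched on both strands.
Ucp1: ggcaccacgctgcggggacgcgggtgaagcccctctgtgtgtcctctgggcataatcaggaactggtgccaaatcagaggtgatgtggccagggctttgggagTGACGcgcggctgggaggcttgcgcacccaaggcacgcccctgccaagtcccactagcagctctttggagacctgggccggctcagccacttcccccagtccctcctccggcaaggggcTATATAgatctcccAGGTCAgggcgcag
Ucp2: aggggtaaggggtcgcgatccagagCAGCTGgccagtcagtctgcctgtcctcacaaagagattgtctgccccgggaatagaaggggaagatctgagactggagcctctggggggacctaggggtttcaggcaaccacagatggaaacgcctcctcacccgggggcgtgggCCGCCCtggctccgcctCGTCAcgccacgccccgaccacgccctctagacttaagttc
Ucp3: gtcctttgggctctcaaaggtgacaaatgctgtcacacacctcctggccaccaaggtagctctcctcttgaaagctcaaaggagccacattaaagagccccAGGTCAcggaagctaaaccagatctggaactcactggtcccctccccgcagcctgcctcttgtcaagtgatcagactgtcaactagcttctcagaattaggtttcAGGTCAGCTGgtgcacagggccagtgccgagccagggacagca
The cAMP response core TGACG was found once upstream of Ucp1, from 147 to 143 bases before the start, and once on the other strand upstream of Ucp2, from 62 to 58 bases before it. It occurs in 17.8% of 32851 mouse promoters of 250 bases. The nuclear receptor half-site AGGTCA, held by 14.0% of promoters, was found once for Ucp1 and at 2 places for Ucp3. Ucp1 alone of the 3 had the core promoter letters TATATA (5.25% of promoters), from 28 to 23 bases before the start, and Ucp2 alone had the GC box GGGCGG (32.7% of promoters). CAGCTG, the E-box of myogenic factors (13.0% of promoters), was found once each for Ucp2 and Ucp3, and the Ucp3 match overlaps its nearer half-site. The E-box CACGTG, bound by the MiT/TFE factors that folliculin restrains and held by 6.02% of promoters, was not among the letters of any of the 3 windows. These matches describe the letters only and are not evidence of binding.

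All values of expression below are the deposited log2 values, which had been given nearly the same distribution in every library, with library medians between 10.7636 and 10.7645. Sequencing depth is unknown. Of 14 white adipocyte markers, all had values, and their library medians were 17.00 and 17.34 in the FLCNKO libraries and 17.13 and 17.15 in the WT libraries. A lower FLCNKO mean was found for 11 of them and 0 passed, with the adipokine genes Cfd at -1.13 ± 0.21, Adipoq at -0.46 ± 0.16 and Retn at -0.44 ± 0.16 lower in both FLCNKO libraries (log2, SE; limma adjusted p = 0.0691, 0.185 and 0.198). Flcn itself was 12.35 and 12.12 in the FLCNKO libraries, against 12.36 and 12.21 in the WT libraries, so the gene-level value did not separate the groups (limma difference -0.05 ± 0.13, SE, with adjusted p = 0.852). The tissue holds cells other than adipocytes and the deleted part is not given, so this value does not check the labels. Over all genes, 1.59% passed the test (limma adjusted p under 0.05), 0.98% higher and 0.614% lower in FLCNKO, and 54.6% had groups that did not overlap.

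Ucp3 rose in the FLCNKO libraries, the 1 of the 3 genes to pass the test, as did 0.98% of all genes in that direction. It had values of 13.97 and 13.61 in the FLCNKO libraries, against 11.79 and 11.39 in the WT libraries, means of 13.79 ± 0.26 and 11.59 ± 0.28 (SD, n = 2 each). Both FLCNKO values lay above both WT values, as for 29.2% of all genes, with a gap of 1.82 between the nearest libraries, while replicates within a group lay 0.37 apart in FLCNKO and 0.39 apart in WT. The change was 2.20 ± 0.20 on the log2 scale (SE), a 4.59-fold rise with a 95% interval from 3.25-fold to 6.50-fold (limma adjusted p = 0.0336). Its p-value ranked 32 among the 13677 genes and its fold change 96 from the top. Across the 4 pairings of an FLCNKO with a WT library, Ucp3 was between 3.53-fold and 5.98-fold higher. With 1 library left out, limma called 0 genes in the whole table. The change of Ucp3 was then 2.02 without FLCNKO replicate 1 (adjusted p = 0.103), 2.38 without FLCNKO replicate 2 (adjusted p = 0.0631), 2.40 without WT replicate 1 (adjusted p = 0.136) and 2.004 without WT replicate 2 (adjusted p = 0.246). Without the mean-variance trend it was 2.20 (adjusted p = 0.14), again with 0 genes called.

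**Figure D1:**
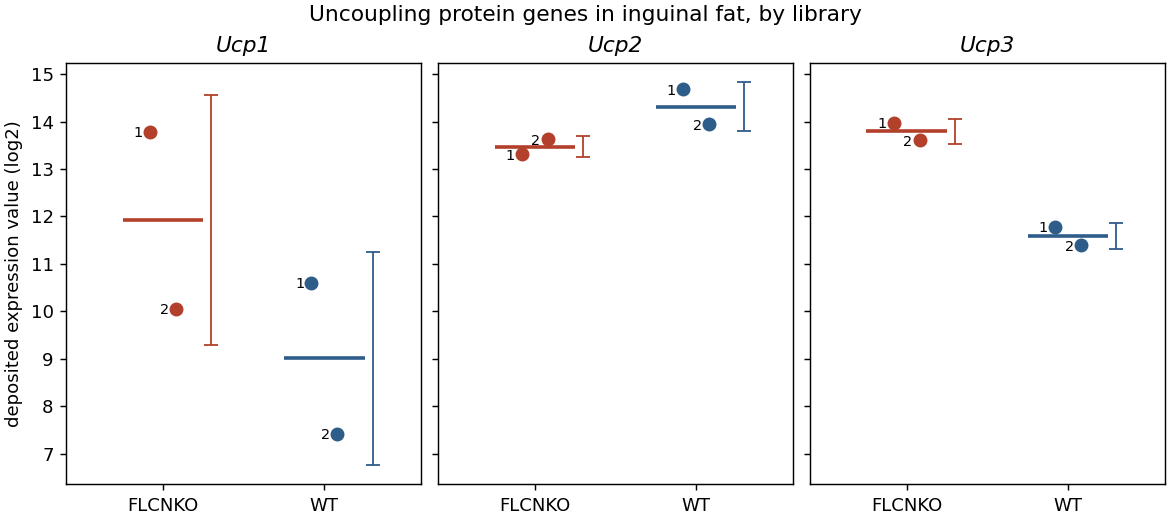
Deposited log2 expression values of Ucp1, Ucp2 and Ucp3 in each library (points, numbered by replicate), with the group mean (thick line) and SD (thin bar, n = 2), FLCNKO in red and WT in blue. The Ucp3 values of 13.97 and 13.61 in FLCNKO stand clear of 11.79 and 11.39 in WT, whereas the Ucp1 points overlap and the Ucp2 points are lower in FLCNKO by less.

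Ucp2 was lower in both FLCNKO libraries but did not pass the test. It had values of 13.31 and 13.62 in the FLCNKO libraries, against 14.68 and 13.95 in the WT libraries, means of 13.47 ± 0.22 and 14.31 ± 0.52 (SD, n = 2 each). The groups did not overlap, as for 25.4% of all genes in that direction, and the gap of 0.32 between the nearest libraries was smaller than the 0.73 between the WT replicates. The log2 fold change was -0.84 ± 0.27 (SE), which is 1.80-fold lower with a 95% interval from 1.12-fold to 2.89-fold lower before adjustment (limma unadjusted p = 0.0248, adjusted p = 0.161). An unadjusted p under 0.05 with a lower FLCNKO mean was found for 10.3% of genes. Leaving out WT replicate 1, the highest library, gave -0.48, and the other omissions gave values between -1.21 and -0.69.

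Ucp1 had the largest difference of the 3 and the widest spread, and it did not pass with group as the only term. With the replicate number as a block, a pairing that no label states, it passed, as described with the processing. It had values of 13.79 and 10.06 in the FLCNKO libraries, against 10.59 and 7.42 in the WT libraries. FLCNKO replicate 2 lay below WT replicate 1, so the groups overlapped. The replicates differed 13.3-fold within FLCNKO and 9.04-fold within WT. These within-group SDs, 2.64 and 2.25, exceeded those of 99.5% and 98.6% of all genes, where the median SD was 0.175 in FLCNKO and 0.104 in WT. The mean change of 2.92 ± 1.54 on the log2 scale (SE) ranked 51 from the top among 13677 genes, but its p-value ranked 4724 (limma adjusted p = 0.336). Its 95% interval ran from -1.02 to 6.86, so neither a small fall nor a rise larger than that of Ucp3 lies outside it. Across the 4 pairings of libraries, FLCNKO over WT ranged from 0.688-fold to 82.7-fold. Leaving out FLCNKO replicate 1 gave a change of 1.05 and leaving out FLCNKO replicate 2 gave 4.78. Leaving out WT replicate 1 gave 4.50 and leaving out WT replicate 2 gave 1.33, and it passed in none of these 4 fits.

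The standing of Ucp1 among all genes of a library moved as widely. It was at percentile 93.8 in FLCNKO replicate 1 and 38.5 in FLCNKO replicate 2, against 47.2 in WT replicate 1 and 12.6 in WT replicate 2. In WT replicate 2 its value was shared exactly by 38 other genes, so values at that level are coarse. Ucp2 stayed between percentiles 90.5 and 97.2 in all 4 libraries. Ucp3 was at percentiles 94.6 and 92.7 in the FLCNKO libraries, against 69.6 and 61.9 in the WT libraries.

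**Figure D2:**
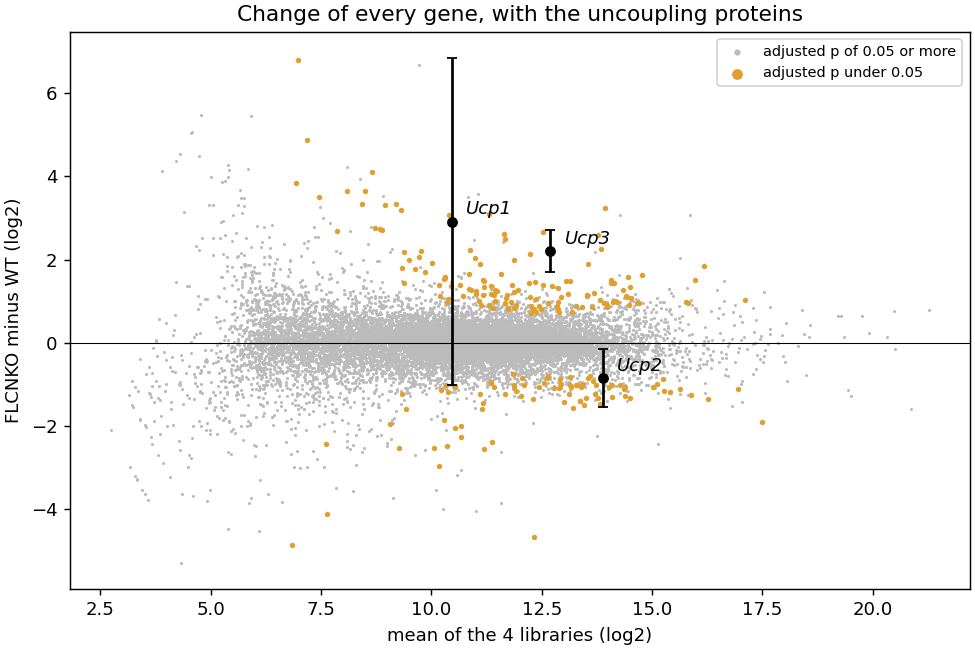
Log2 difference of FLCNKO minus WT for each of 13677 genes (vertical) against the mean of the 4 libraries (horizontal), with genes of adjusted p under 0.05 in orange and the 3 uncoupling protein genes in black with 95% intervals. Ucp3 at 2.20 has a narrow interval away from 0, the interval of Ucp1 at 2.92 crosses 0, and that of Ucp2 at -0.84 ends close to it.

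The genes were also set against each other within a library, and the ratio of Ucp3 to Ucp2 was higher in both FLCNKO libraries than in either WT library. The log2 difference Ucp3 minus Ucp2, each per length, was 1.37 and 0.69 in the FLCNKO libraries, against -2.19 and -1.85 in the WT libraries. The mean ratio was thus 8.25-fold higher in FLCNKO, a difference that does not depend on the lengths used. With 2 libraries per group an exact two-sided permutation test cannot go below p = 0.333, and it gave that value. The Ucp1 minus Ucp2 difference was 1.76 and -2.28 in FLCNKO and -2.80 and -5.24 in WT (exact permutation p = 0.333), also without overlap. Ucp1 minus Ucp3 was 0.40 and -2.97 in FLCNKO and -0.61 and -3.39 in WT, which overlapped (exact permutation p = 0.667). These are 3 comparisons, and none can pass adjustment.

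Levels per kilobase of the longest coding transcript (1636 bases for Ucp1, 3988 for Ucp2 and 2448 for Ucp3) set the order of the genes. In WT, Ucp2 was highest on this log2 scale (12.68 and 11.95), then Ucp3 (10.49 and 10.10) and Ucp1 (9.88 and 6.71). At these lengths the step to Ucp3 exceeded the replicate spread, but Ucp3 and Ucp1 were closer than the WT replicates of Ucp1. In FLCNKO, Ucp3 was at 12.68 and 12.31 per kilobase, Ucp2 at 11.31 and 11.63, and Ucp1 at 13.08 and 9.35, so that Ucp1 spanned the other two. The order of Ucp2 and Ucp3 in FLCNKO rests on the length, because with the next longest coding transcript of Ucp2 (1116 bases) its level was 13.15 and 13.46. With that length Ucp2 stayed highest in WT (14.52 and 13.79). With the next longest coding transcript of Ucp3 (1260 bases), its level was 13.64 and 13.27 in FLCNKO, and 11.45 and 11.06 in WT. The nearest WT values, 11.95 for Ucp2 at its longest transcript and 11.45 for Ucp3, then lay closer than the WT replicates of Ucp2. With both shorter transcripts Ucp2 and Ucp3 overlapped in FLCNKO.

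Little sequence was shared with other genes. None of the 31-base stretches of Ucp1 and Ucp3 transcripts (0%) occur in transcripts of other genes, on either strand, and 4.18% of those of Ucp2 do. Ucp2 shares exon bases with Dnajb13, which is read from the opposite strand, and the strand setting of the counting is not given. Dnajb13 was far below Ucp2, at 7.71 and 8.19 in the FLCNKO libraries and 7.20 and 7.33 in the WT libraries. Gm10603, an antisense gene, overlaps Ucp3 without sharing exon bases, and was not analysed here. Measured genes next to the pair were chosen by position after the values of Ucp2 and Ucp3 had been seen. Of 3 on either side, 0 passed, with log2 fold changes from -0.03 for C2cd3 to 0.68 for Dnajb13. Of 3 on either side of Ucp1, 0 passed either, with log2 fold changes from -0.28 for Tbc1d9 to 0.63 for Scoc.

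All gene lists here were chosen with earlier results of these data known, so their shares are descriptions only. Among other effectors of brown and beige fat, 5 of 22 measured genes rose, against 0.98% of all genes, and 0 fell. The median log2 fold change was 2.23, against 0.00457 over all genes. The 5 were S100b, whose protein promotes sympathetic innervation of fat, Cox8b, a respiratory chain subunit, Acot2, a mitochondrial thioesterase, Plin5, a lipid droplet protein, and Otop1, a proton channel. Their changes were 3.07 ± 0.16 for S100b, 3.24 ± 0.27 for Cox8b, 1.65 ± 0.14 for Acot2, 1.99 ± 0.21 for Plin5 and 2.63 ± 0.28 for Otop1 (log2, SE; limma adjusted p between 0.0336 and 0.0404). The groups of 21 of the 22 effectors did not overlap, with FLCNKO higher, as for 29.2% of all genes. The exception was Dio2, at 9.03 and 6.51 in the FLCNKO libraries, against 8.67 and 7.04 in the WT libraries. Its limma difference was -0.08 ± 0.97 (log2, SE; adjusted p = 0.972). Ucp1 also overlapped, and its replicates lay further apart than those of any of the 22 effectors. The effectors' replicates lay 0.79 apart at the median in FLCNKO and 0.33 in WT, with a largest difference of 2.52 for Dio2 in FLCNKO and 2.99 for Fabp3 in WT. Replicate 1 was above replicate 2 for 19 of the 22 in FLCNKO and for 20 of the 22 in WT, as it was for Ucp1.

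The cell types that could carry Ucp1 and Ucp3 RNA were read from marker lists. Of the markers of the brown depot, 2 of 4 had values, and 0 passed: Epsti1 was -0.65 and Eva1a 0.81 on the log2 scale. Of the beige markers, 4 of 7 had values and 0 passed, with a median of -0.46. Ear2 was at -1.47 ± 0.56, Tmem26 at -0.87 ± 0.29 and Hoxc9 at -0.04 ± 0.18, while Tbx1 was at 1.503 ± 0.47 (log2, SE; limma adjusted p = 0.216, 0.172, 0.924 and 0.155). Skeletal muscle, which makes Ucp3, had 21 of 22 markers with values and 0 passed. Their median was 11.88 and 5.42 in the FLCNKO libraries, against 12.65 and 9.65 in the WT libraries. The log2 of their summed level was 16.59 and 14.04 in FLCNKO and 17.63 and 14.79 in WT. Their lowest single value was 2.37, where the lowest of the whole table was 1. Ucp3 was 13.61 in FLCNKO replicate 2, the library with the lowest muscle median, and 11.79 in WT replicate 1, the library with the highest. Ucp1 was higher in replicate 1 of each label, as the muscle medians were. The part of muscle in the Ucp3 difference and in the Ucp1 spread was not tested. In whole tissue, fewer cells of a type and less RNA per cell cannot be told apart.

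**Figure D3:**
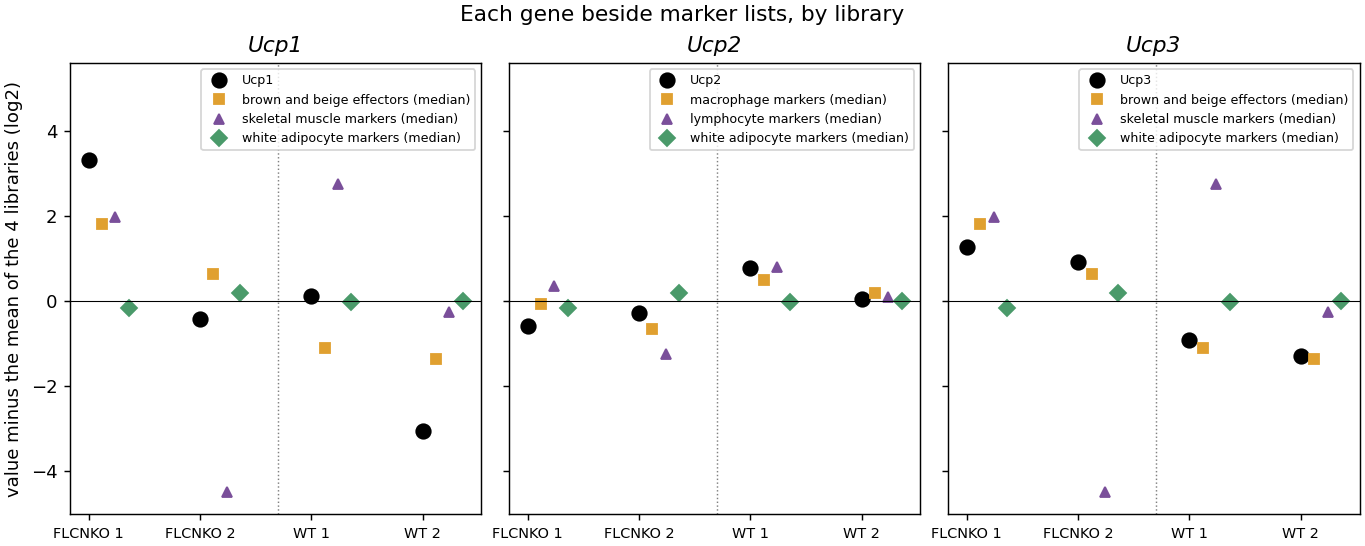
Ucp1, Ucp2 and Ucp3 (black) beside the medians of marker lists in each library, each as a log2 value minus its own mean over the 4 libraries, with FLCNKO left of the dotted line. Ucp3 is above its mean in both FLCNKO libraries, as the brown and beige effectors are, while the muscle median is lowest in FLCNKO replicate 2 (5.42 before its mean is taken off), and Ucp2 is below its mean in both.

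For Ucp2, macrophage and lymphocyte markers were set beside it. Of 19 macrophage markers, 18 had a lower FLCNKO mean and 2 fell, against 0.614% of all genes: the integrin gene Itgam by 1.15 and the complement gene C1qc by 1.01 on the log2 scale (limma adjusted p = 0.0404 and 0.0419). The macrophage median change was -0.72. The log2 of the summed macrophage level was 17.31 and 17.01 in the FLCNKO libraries, against 18.12 and 17.88 in the WT libraries. The lowest single value of a macrophage marker was 5.02. Of 14 lymphocyte markers 0 passed and 10 had a lower FLCNKO mean, and the log2 of their summed level was 12.28 and 10.91 in FLCNKO and 13.60 and 12.01 in WT. Both lists and Ucp2 were lower in FLCNKO, but within FLCNKO the order differed, with Ucp2 higher and both lists lower in replicate 2. The part of these cells in the Ucp2 difference was not tested.

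Of 5 measured relatives of the uncoupling proteins and adenine nucleotide carriers, 0 passed. At an unadjusted limma p under 0.05, 2 were higher, as were 1659 of all 13677 genes. Slc25a4 and Slc25a5, the main adenine nucleotide carriers, which also let protons leak, had log2 fold changes of 0.46 ± 0.12 and 0.44 ± 0.13 (SE; limma adjusted p = 0.113 and 0.134). Slc25a30 was at 0.20 ± 0.14 and the brain-type relative Slc25a27 at -0.07 ± 0.24 (adjusted p = 0.481 and 0.894). The largest of these, 0.46, was well below the 2.20 of Ucp3.

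Among factors that switch on Ucp1, 4 of 23 rose, against 0.98% of all genes, and 0 fell. A lower FLCNKO mean was found for 12 of the 23. At an unadjusted limma p under 0.05, 3 were lower and 7 higher, against 1402 lower and 1659 higher of all 13677 genes. The median change of the 23 was -0.01 on the log2 scale. That median turned to 0.02 without FLCNKO replicate 1, 0.05 without FLCNKO replicate 2 and 0.02 without WT replicate 2. The nuclear receptor gene Ppara, which also drives Ucp3, had values of 12.97 and 12.76 in the FLCNKO libraries, against 9.65 and 9.88 in the WT libraries, a rise of 3.10 ± 0.15 (SE; limma adjusted p = 0.0336). The 3 others were the orphan receptor gene Esrrg with 2.73 ± 0.31, and the coactivator genes Ppargc1b with 1.77 ± 0.22 and Ppargc1a with 1.12 ± 0.15 (adjusted p = 0.0405, 0.0438 and 0.0476). Of 8 measured repressors 0 passed and 6 had a lower FLCNKO mean. Zfp423, which holds fat in the white state, was at -0.41 ± 0.11 and Foxp1 at -0.44 ± 0.17 (adjusted p = 0.116 and 0.219). Rb1 was higher, at 0.26 ± 0.11 (adjusted p = 0.255).

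On the adrenergic path to Ucp1, 1 of 16 genes rose, against 0.98% of all genes, and 0 fell. The median was 0.15, and 0.07 without FLCNKO replicate 2. Pde4d, a phosphodiesterase that breaks down cAMP, rose by 1.14 ± 0.13 on the log2 scale (SE; limma adjusted p = 0.0404). Adrb3, the beta receptor of adipocytes, had values of 15.14 and 15.19 in the FLCNKO libraries, against 14.59 and 14.47 in the WT libraries, and did not pass (0.63 ± 0.11, adjusted p = 0.064). Pde3b, the phosphodiesterase through which insulin lowers cAMP, was at -0.52 ± 0.13, and the kinase subunit gene Prkar2b at 0.43 ± 0.13 (adjusted p = 0.107 and 0.146). The SD of Adrb3 was 0.03 in FLCNKO and 0.08 in WT, so this receptor gene did not share the wide spread of Ucp1.

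Of 10 measured regulators of Ucp2 and Ucp3, Ppara was the 1 that rose (0.98% of all genes did) and 0 fell. The median was -0.17, and it was -0.11 without FLCNKO replicate 1 and -0.30 without WT replicate 1. Its partner Rxra was at -0.55 ± 0.10, the mitochondrial deacetylase gene Sirt3 at 0.80 ± 0.17 and the thyroid hormone receptor gene Thra at -0.39 ± 0.11 on the log2 scale (SE; limma adjusted p = 0.0654, 0.0835 and 0.135). Of 20 genes that supply fatty acids, reducing equivalents or purines to uncoupled respiration, 2 rose, against 0.98% of all genes, and 0 fell, with a median of 0.56. They were Gpd2, which feeds glycerol phosphate electrons into the respiratory chain, by 2.26 ± 0.25, and Sdhb, a succinate dehydrogenase subunit, by 0.92 ± 0.12 (adjusted p = 0.0404 and 0.0478). Just short of the threshold were Gpd1, the cytosolic partner of Gpd2, at 1.22 ± 0.17 and Sdhc at 0.86 ± 0.13 (adjusted p = 0.0505 and 0.0552). With any 1 library left out, and without the mean-variance trend, 0 members of these lists were called, as 0 genes were in the whole table.

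**Figure D4:**
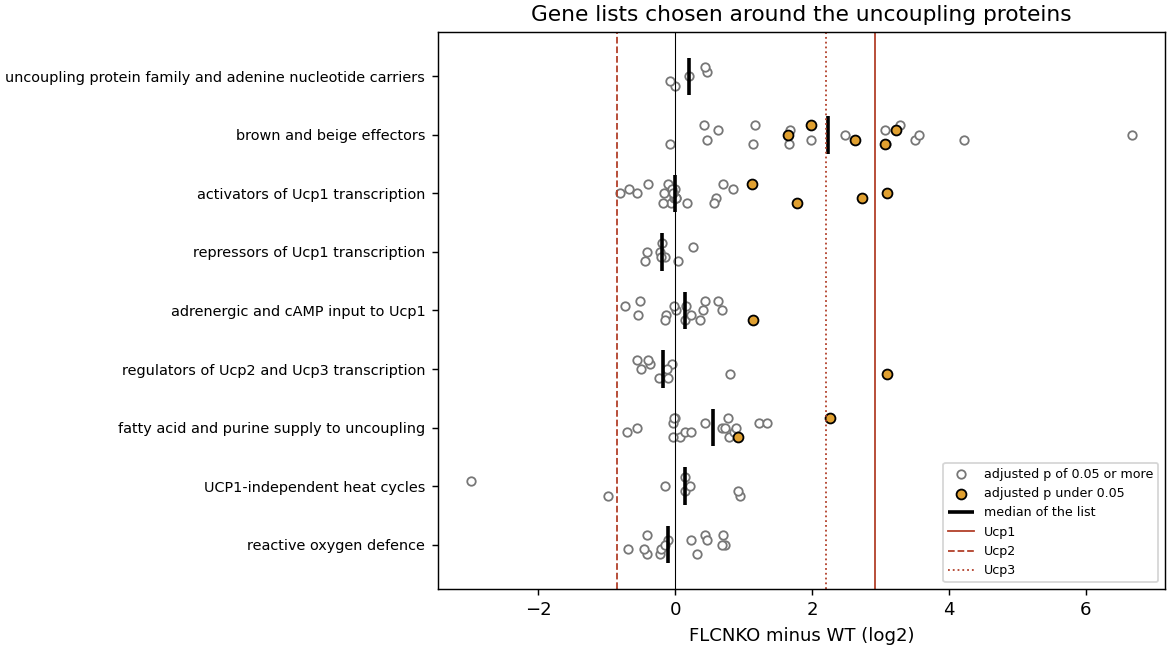
Log2 difference of FLCNKO minus WT for the members of 9 gene lists (points, filled where the adjusted p was under 0.05) with each list's median (black bar) and the values of Ucp1, Ucp2 and Ucp3 as vertical red lines. The brown and beige effectors centre at 2.23, between Ucp3 and Ucp1 values of 2.20 and 2.92, while the medians of the other 8 lists in the fit to all 4 libraries lie between -0.19 and 0.56.

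Genes with the most similar profile were found by the root mean square difference of log2 values over the 4 libraries, after each gene's own mean was taken off. For Ucp3 the nearest were Sycp3 (0.105), a meiosis gene, Gys2 (0.108), the liver form of glycogen synthase, and Lrrc9 (0.115). Plin5 (0.144) and Gpd2 (0.152) followed, and 25 genes lay within 0.25 of Ucp3. Gys2 had values of 13.49 and 13.14 in the FLCNKO libraries, against 11.23 and 11.13 in the WT libraries. For Ucp2 the nearest were Bach2 (0.042), a transcription factor gene of lymphocytes, Baiap2l2 (0.060) and Siglech (0.063), a marker of plasmacytoid dendritic cells, then Parvaos (0.081) and Fbln1 (0.086). Of 13676 genes, 220 lay within 0.25 of Ucp2. For Ucp1 there were 0 genes within 0.25, and the nearest, Phyhip, Myl3 and Pdk4, were at 0.861, 0.954 and 0.986, followed by Perm1 (0.994) and Gm10032 (1.02). Phyhip and Myl3 were themselves at the low end, down to 1 in WT replicate 2. Pdk4, a kinase that spares glucose in fasting, was high, at 18.17 and 16.60 in the FLCNKO libraries and 15.03 and 13.60 in the WT libraries.

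**Figure D5:**
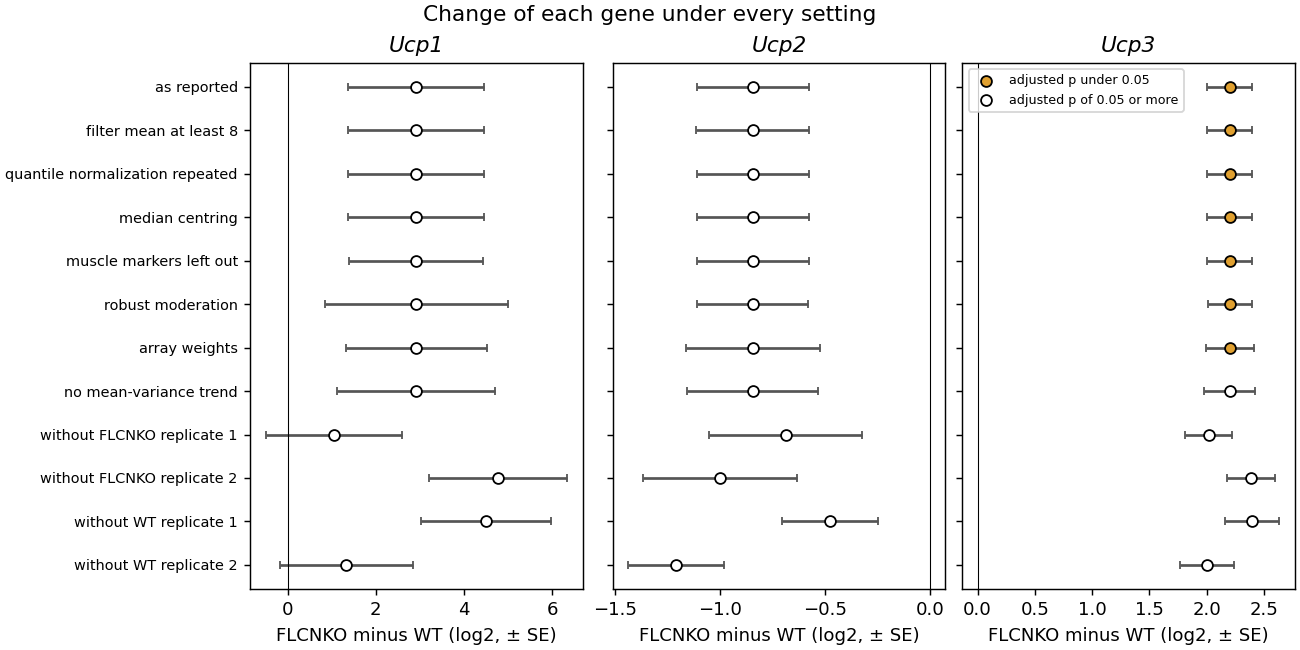
Log2 difference of FLCNKO minus WT (± SE) for each gene under the reported setting and 11 alternatives, filled where the adjusted p was under 0.05. The replicate block, in which Ucp1 passed (2.92 ± 0.18, SE; limma adjusted p = 0.0145), is not drawn. Ucp3 stays between 2.004 and 2.40, Ucp2 between -1.21 and -0.48, and Ucp1 between 1.05 and 4.78.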

How the data were processed

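RNA sequencing covered 2 FLCNKO and 2 WT libraries, grouped by their titles. The authors deposited 1 table of log2 values per library. Per the submitters' processing notes, the tools were STAR and limma, with no version, and the build was mm9. Not given in the sources used here are the counting program, the annotation and the strand setting. The near-equal distributions hide a shift shared by most genes, and since depth is unknown no counting intervals are given.

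Symbols matched 13592 of 13677 Ensembl identifiers through the reference names. All genes were fitted with limma 3.58.1 in R 4.3.3 with group as the only term and a mean-variance trend (2 residual and 3.09 prior degrees of freedom), two-sided, with Benjamini-Hochberg adjustment over all genes and a threshold of 0.05. The fit was also run on values simulated from its own variance model with independent libraries, which cannot test for effects shared between libraries. Fold changes are FLCNKO minus WT. Transcript lengths and overlaps are from GENCODE on GRCm38, and promoter sequences from RefSeq.

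The members and lists were chosen with earlier results of these data known. The text names the 3 genes with the 5 nearest profiles of each, and Flcn. From a list it names the genes that passed or up to 4 with the smallest p, but none from the muscle and lymphocyte lists. Endothelial and epithelial duct lists were also read. Of 10 endothelial genes 0 passed, and of 3 measured epithelial genes Trp63 was lower (-2.52 ± 0.34, SE; limma adjusted p = 0.0478). Neighbouring genes were chosen by position, Dio2 and Fabp3 for their spread, and Dio2 also for its overlap, after their values were seen. Alternatives were a minimum mean of 8, other normalization and variance moderation, array weights, a replicate block and leaving out each library. Leaving out the muscle markers was added after the data were seen.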

Additional observations from a re-analysis of the deposited data

How the results depend on the processing

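Under the alternatives other than leaving out a library, Ucp1, Ucp2 and Ucp3 kept their direction. Ucp3 passed in all of these except without the mean-variance trend (2.20, adjusted p = 0.14). With a library left out it was between 2.004 and 2.40 and did not pass. The replicate numbers are not said to pair libraries, and deviations of the first replicates from their group means correlated at 0.363 over genes. With the replicate number as a block, Ucp1 passed (2.92 ± 0.18, SE; limma adjusted p = 0.0145), and 401 genes were higher and 441 lower, against 134 and 84 without it. A filter on a mean of 8 gave 187 higher and 138 lower genes, robust moderation 201 and 143, and array weights 167 and 104. Without the trend, and with any library left out, 0 genes were higher and 0 lower. Among the lists, the effectors had 5 genes called higher, but 9 with the filter, 8 with array weights and 15 with the block. The macrophage markers had 2 called lower, but 4 with the filter and 10 with the block. The supply genes had 2 called higher, but 4 with the filter, 4 with robust moderation, 5 with array weights and 6 with the block. With the block, 5 lymphocyte markers, 2 muscle markers, 1 beige marker and 1 activator were called lower, as were 1 heat cycle gene and 1 reactive oxygen gene, and 1 heat cycle gene was called higher. The filter also called 1 reactive oxygen gene lower. Ucp1 minus Ucp3 changed by between -0.97 and 2.40 with a library left out, reversing without FLCNKO replicate 1 (-0.97) and without WT replicate 2 (-0.68). The cause was not tested.

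Slc25a27, close to 0, lay between -0.21 and 0.07 with a library left out, and its sign turned without FLCNKO replicate 1 (0.0744) and without WT replicate 2 (0.03).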

Other observations

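Lists of heat production without UCP1 and of reactive oxygen defence were also read. Of 8 measured genes of UCP1-independent heat cycles 0 passed. At an unadjusted limma p under 0.05, 2 were higher and 1 lower, against 1659 higher and 1402 lower of all 13677 genes. The median log2 fold change of the 8 was 0.14. With 1 library left out that median lay between 0.049 (without WT replicate 1) and 0.25 (without FLCNKO replicate 1), and it was 0.068 without FLCNKO replicate 2. Alpl, a phosphatase of the creatine cycle, was at 0.95 ± 0.22, Pm20d1, which makes uncoupling N-acyl amino acids, at 0.92 ± 0.23 and Gatm, of creatine synthesis, at -0.98 ± 0.26 (SE; limma adjusted p = 0.0944, 0.11 and 0.114).

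Of 15 genes of reactive oxygen defence 0 passed. At an unadjusted limma p under 0.05, 6 were higher and 4 lower, against 1659 higher and 1402 lower of all 13677 genes. The median log2 fold change of the 15 was -0.10. The median turned to 0.12 without WT replicate 1 and 0.0034 without FLCNKO replicate 2, and was -0.0074 without WT replicate 2 and -0.061 without FLCNKO replicate 1. The mitochondrial superoxide dismutase gene Sod2 was at 0.69 ± 0.13, Gpx4, which guards membranes, at 0.73 ± 0.13 and the cytosolic peroxidase gene Gpx1 at -0.69 ± 0.11 (SE; limma adjusted p = 0.0702, 0.0641 and 0.0547). Sod2 had values of 14.38 and 14.11 in the FLCNKO libraries, against 13.53 and 13.57 in the WT libraries.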
